A study of Homo sapiens with 8 samples.

Results

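The genes of 10 enzymes that add acyl groups to histone lysines or remove them were followed through peak lists of histone H3 lysine 23 succinylation (H3K23su) and H3 lysine 27 acetylation (H3K27ac). The 10 genes, of 20163 protein-coding genes in the annotation, were chosen by name: the acetyltransferases EP300, CREBBP, KAT2A, KAT2B, HAT1, KAT6A and KAT6B, the acyltransferase CPT1A, and the deacylases SIRT5 and SIRT7. The peaks were measured by CUT&Tag, in which an antibody directs a transposase to cut and tag DNA next to a histone mark. HCT15-Pa was the parental HCT15 colon cancer cell line, labelled as treated with the solvent DMSO. HCT15-FR was its 5-fluorouracil (5-FU)-resistant counterpart, labelled as treated with 5-FU at 20 μg/ml. According to the methods, HCT15-FR cells were kept without the drug for a short time before experiments. Whether HCT15-FR came from 1 clone was not given in the sources used here. Each mark was profiled in 2 libraries of each line, 8 libraries in all, and nothing stated that the 2 libraries came from separate cultures.

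Histone acylation is written by acyltransferases that take their acyl group from a coenzyme A thioester. EP300 (p300) and CREBBP (CBP) are closely related co-activators that acetylate H3K27 at enhancers and promoters, and p300 can also use longer acyl donors. KAT2A (GCN5) and KAT2B (PCAF) acetylate histone H3 within large co-activator complexes, and KAT2A has been described as a histone succinyltransferase when it is bound to the enzyme complex that makes succinyl-CoA. HAT1 acetylates newly made histone H4. KAT6A and KAT6B, of the MYST family, acetylate H3K23. CPT1A carries fatty acids into mitochondria and has been described as a lysine succinyltransferase, while SIRT5 and SIRT7 are sirtuins that remove succinyl groups from lysines.

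The lists held 65364 to 68365 H3K23su peaks and 70600 to 76676 H3K27ac peaks per library. Read depth was not in the lists, and the read mapping statistics in the study's supplement were not used here. The precision of a single peak was therefore not assessed. A missing peak meant only that the signal was not detectable at the peak caller's threshold. According to the methods, the broad option of the peak caller was used for H3K27ac only, so peaks of the 2 marks were not called alike. Its part in any difference between the marks was not tested. HCT15-FR peaks were wider, with a mean of 581 to 586 bp against 505 to 507 bp for H3K23su and 608 to 627 bp against 550 bp for H3K27ac. All H3K23su peaks together covered 33.3 ± 0.368 Mb (mean ± SD, n = 2) in HCT15-Pa and 39.7 ± 0.467 Mb in HCT15-FR, a ratio of 1.19. H3K27ac peaks covered 39.2 ± 0.515 Mb and 46.5 ± 0.220 Mb, also a ratio of 1.19. Every covered length below was therefore read beside this library-wide ratio, whose part in each result was not tested. Of 7 marker genes of colon epithelium, 5 had an H3K23su promoter peak and 6 an H3K27ac promoter peak in all 4 libraries of the mark. For the intestinal factor CDX1 each mark had a promoter peak in HCT15-FR replicates 1 and 2 and in no HCT15-Pa replicate, and CDX2 had an H3K23su promoter peak only in HCT15-FR replicate 2. Of 9 annotated markers of other cell types, none had H3K23su promoter peaks in all 4 libraries and 1, COL1A1, had H3K27ac peaks in all 4.

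Overlapping peaks of the 4 libraries of a mark were merged into regions. A region was called shared when all 4 libraries had a peak in it, FR-only when both HCT15-FR libraries and no HCT15-Pa library had one, Pa-only in the reverse case, and mixed otherwise. A promoter was the 2 kb on either side of the transcription start site (TSS), and a locus was the gene with 50 kb on either side. At 7 places in these loci an FR-only region of H3K23su overlapped an FR-only region of H3K27ac. A total of 6 lay in introns, in KAT2B, EP300, CREBBP (2 places), CPT1A and KAT6B. The central 200 bases of the stretch that both marks covered are printed for the 4 in KAT2B, EP300 and CREBBP (in CREBBP intron 30, where that stretch was 196 bp, the window passes both its ends by 2 bases and the marked GC box begins outside it), since these are places where both marks had peaks in HCT15-FR alone. Sequences are from hg19, plus strand, 5′ to 3′. Capitals mark matches to the AP-1 motif TGAGTCA and to the GC box GGGCGG. Both strands were searched, so that an AP-1 match on the minus strand reads TGACTCA here, and matches to the different motifs did not overlap.

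KAT2B intron 5, chr3:20150409-20150608: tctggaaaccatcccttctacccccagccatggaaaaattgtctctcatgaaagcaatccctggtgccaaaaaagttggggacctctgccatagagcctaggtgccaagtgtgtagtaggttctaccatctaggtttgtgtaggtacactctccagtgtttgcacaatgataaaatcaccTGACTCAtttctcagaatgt
EP300 intron 27, chr22:41567912-41568111: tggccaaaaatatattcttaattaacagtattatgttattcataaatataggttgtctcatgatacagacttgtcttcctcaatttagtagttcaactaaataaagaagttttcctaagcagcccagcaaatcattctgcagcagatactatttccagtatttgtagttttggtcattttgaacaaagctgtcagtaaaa
CREBBP intron 30, chr16:3780041-3780240: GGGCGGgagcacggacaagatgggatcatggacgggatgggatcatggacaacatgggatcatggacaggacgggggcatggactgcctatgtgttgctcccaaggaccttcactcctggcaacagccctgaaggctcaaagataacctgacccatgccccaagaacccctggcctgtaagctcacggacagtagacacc
CREBBP intron 8, chr16:3830514-3830713: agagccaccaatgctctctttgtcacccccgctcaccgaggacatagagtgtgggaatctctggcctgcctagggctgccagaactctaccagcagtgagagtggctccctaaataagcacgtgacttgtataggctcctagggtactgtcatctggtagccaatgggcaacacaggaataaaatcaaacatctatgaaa

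The AP-1 letters occurred in 1 of the 4 windows, that of KAT2B. Across the genome they occurred in 14.9% of the 3495 places where both marks were FR-only. Among H3K23su regions alone they occurred in 11.8% of FR-only, 7.54% of shared and 6.32% of Pa-only ones, all in windows of the same length. Median GC of these windows was 45.5%, 48.5%, 57% and 53.5% in the same order, and its part in the shares was not tested. The GC box occurred in 1 of the 4, that of CREBBP intron 30, against 5.44% of the 3495 places. Of the 8 consecutive 25-base stretches that make up each window, all 8 occurred once in the genome in EP300 and in both CREBBP windows. In KAT2B 7 of 8 did, and the other had 13 exact copies. Only uniquely mapped reads entered the peak calls, and the part of such copies in these peaks was not tested.

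At the promoters the set was marked in nearly every library. H3K27ac peaks lay at all 10 promoters in all 4 libraries, a state found at 59% of protein-coding genes, while 26.5% had such a peak in no library. H3K23su peaks lay at 9 of 10 promoters in all 4 libraries, against 54.7% of genes, while 33.4% of genes had one in no library. The exception was SIRT7, whose promoter had no H3K23su peak in HCT15-Pa replicate 1. Of the 12 H3K23su regions that touched these promoters, 11 were shared, 1 was mixed and none was FR-only or Pa-only, where 3.63% of all genes had an FR-only and 2.1% a Pa-only promoter region. Of the 16 H3K27ac promoter regions, 12 were shared, 3 were mixed and 1, at KAT2B, was FR-only, where 2.66% of all genes had an FR-only and 2.61% a Pa-only promoter region.

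The length of promoter DNA under peaks differed little between the lines at most of these genes. H3K23su covered more of the promoter in both HCT15-FR libraries than in either HCT15-Pa library at 3 genes (KAT2B, SIRT5 and KAT6B) and less at none, against 28.7% and 5.57% of all genes. H3K27ac covered more at 3 genes (EP300, KAT6A and KAT6B) and less at 1 (SIRT7), against 23.1% and 9.42% of all genes. These shares include the 33.4% (H3K23su) and 26.5% (H3K27ac) of genes with no promoter peak in any library, where the lines could not separate. They are thus lower than they would be among genes that, like these 10, had promoter peaks. Divided by the covered bases of its library, the difference turned for SIRT5 in H3K23su and for EP300 in H3K27ac, and the lines overlapped for KAT6B in both marks and KAT6A in H3K27ac. Of the 6 promoter calls with more in HCT15-FR, that of KAT2B in H3K23su alone held on this scale. With the promoters of all annotated transcripts the difference turned for KAT6B in both marks. The median ratio of HCT15-FR to HCT15-Pa over the 10 promoters was 1.05 for H3K23su, where the median over all genes with a ratio was 1.14, and 1.03 for H3K27ac, where it was 1.04. With 2 libraries a line the exact permutation test cannot give a two-sided p below 0.333, so no single difference in covered length could pass 0.05.

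**Figure D1:**
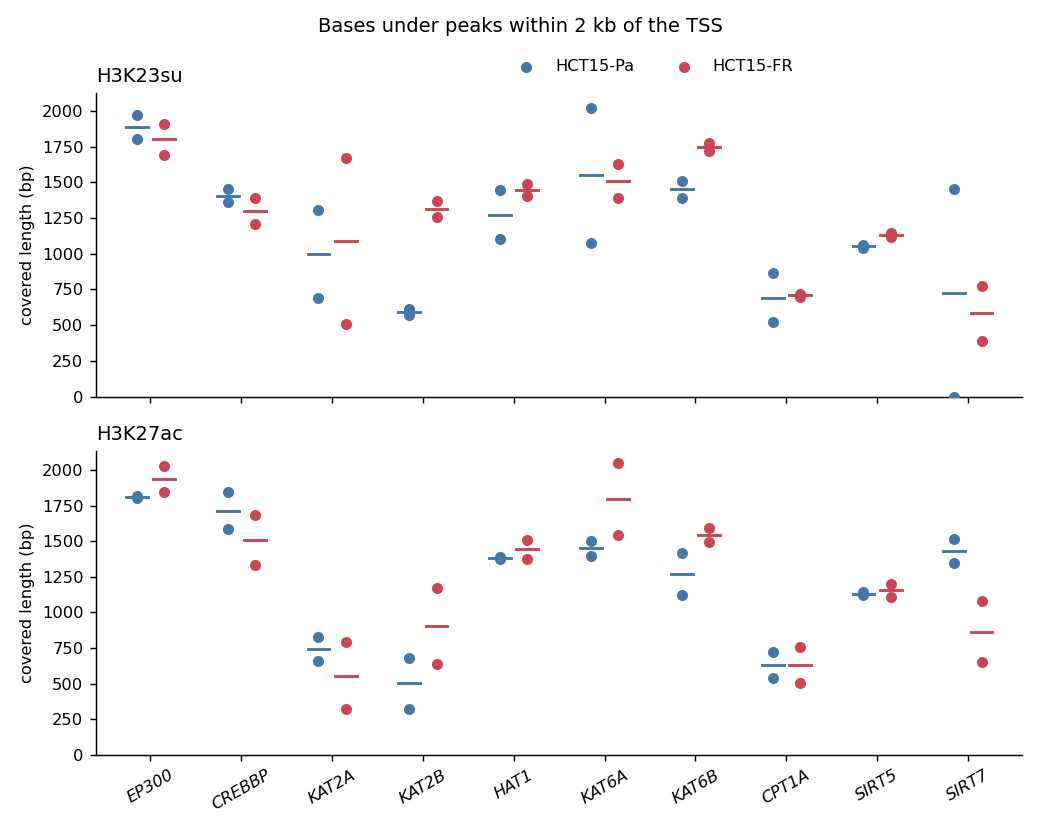
Bases under H3K23su peaks (top) and H3K27ac peaks (bottom) within 2 kb of the TSS of each of the 10 genes. Points are libraries, 2 per line, and horizontal bars are means. KAT2B is the gene whose H3K23su lengths stand farthest apart, with 568 and 611 bp in HCT15-Pa and 1255 and 1366 bp in HCT15-FR, and SIRT7 is the one whose H3K27ac lengths are lower in both HCT15-FR libraries.

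Over the whole loci the covered length was greater in HCT15-FR for most of the set. H3K23su covered more in both HCT15-FR libraries than in either HCT15-Pa library at 8 of 10 genes and less at none, where the background over all genes was 48.1% higher and 12.2% lower. H3K27ac likewise covered more at 8 of 10 and less at none, where it was 48.2% and 13.1%. With the 50% highest-scoring peaks of each library, H3K23su covered more at 4 genes (KAT2B, CPT1A, SIRT7 and KAT6B) against 44.3% of all genes, near the background, and H3K27ac at 7 against 42.4%. With flanks of 10 kb, H3K23su covered more at 5 and less at 1 (EP300), against 38.7% and 10.8%, and H3K27ac more at 7 and less at 1 (SIRT7), against 39% and 12.5%. With lists of equal length H3K23su covered more at 7 and H3K27ac at 8, against 46.2% and 44.9%. With a common minimum score these were also 7 and 8, against 47.9% and 48%. EP300 lost its H3K23su call in both settings. The median difference over the 10 loci was 1708 bp for H3K23su and 1083 bp for H3K27ac, where the medians over all genes were 541 and 509.5 bp. The 10 loci also held more covered DNA, with a median of 6137 bp under H3K23su peaks and 5873 bp under H3K27ac peaks against 3775 and 4304.5 bp over all genes. The median ratio of HCT15-FR to HCT15-Pa was 1.30 against 1.20 over all genes for H3K23su and 1.29 against 1.14 for H3K27ac. When each length was divided by the covered bases of its library, 5 genes were higher and none lower for H3K23su, against 27.5% and 24.3% of all genes. For H3K27ac, 5 were higher and 3 (CREBBP, SIRT5 and SIRT7) lower on that scale, against 24.1% and 30.8%. With full lists and 50 kb flanks, the 6 genes KAT2B, EP300, CPT1A, SIRT5, KAT6A and KAT6B were higher in both marks, against 34.5% of all genes. After division by covered bases the 3 genes KAT2B, CPT1A and KAT6B were, against 13.2%.

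**Figure D2:**
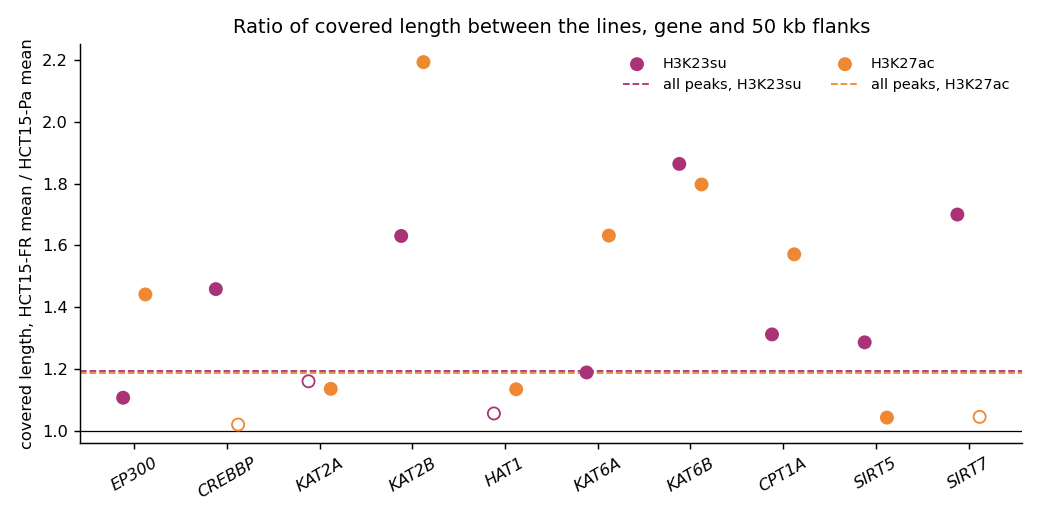
Covered length in each locus, the HCT15-FR mean divided by the HCT15-Pa mean, for H3K23su and H3K27ac. Filled points are genes whose 2 HCT15-FR libraries both lie on one side of both HCT15-Pa libraries, open points are genes whose lines overlap, and dashed lines are the ratio over all peaks, 1.19 for each mark. KAT2B, KAT6B and CPT1A lie above the dashed lines in both marks, CREBBP, SIRT5 and SIRT7 in H3K23su alone, and EP300 and KAT6A in H3K27ac with H3K23su ratios of 1.11 and 1.19.

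The regions themselves were mostly mixed. Of 220 H3K23su regions in the 10 loci, 19 were FR-only (8.64%), 10 Pa-only (4.55%), 50 shared and 141 mixed, where 7.95% of all H3K23su regions were FR-only, 5.01% Pa-only and 23.9% shared. Of 188 H3K27ac regions, 27 were FR-only (14.4%), 6 Pa-only (3.19%), 47 shared and 108 mixed, where the background was 9.08% FR-only, 4.53% Pa-only and 25.2% shared. The H3K27ac FR-only regions lay mostly inside the genes: 20 of the 84 regions in gene bodies outside the promoters (23.8%) were FR-only and 3 were Pa-only, against 10.2% and 3.94% of all such regions. For H3K23su these were 12 and 9 of 129 regions, against 8.1% and 4.55%. At least 1 H3K23su FR-only region lay in 9 of the 10 loci and a Pa-only one in 8, against 48.6% and 35.6% of genes. For H3K27ac these were 8 and 5 loci, against 53.4% and 33.9%. The loci differ in length, and long genes have more places for a region.

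FR-only regions of H3K23su and H3K27ac coincided at 7 places and Pa-only regions at none. Of the 19 H3K23su regions that were FR-only, 7 met an H3K27ac region of the same class (36.8%), close to the genome-wide share of 35.8%. Another 4 overlapped a shared H3K27ac region, 5 a mixed one, and 3 met no H3K27ac peak. Of the 10 Pa-only H3K23su regions, none overlapped a Pa-only H3K27ac region, where 19.8% of all Pa-only H3K23su regions did. Only 4 of the 10 met any H3K27ac peak, where 69.2% of all did. A share of 10 regions is coarse, and the difference was not tested.

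**Figure D3:**
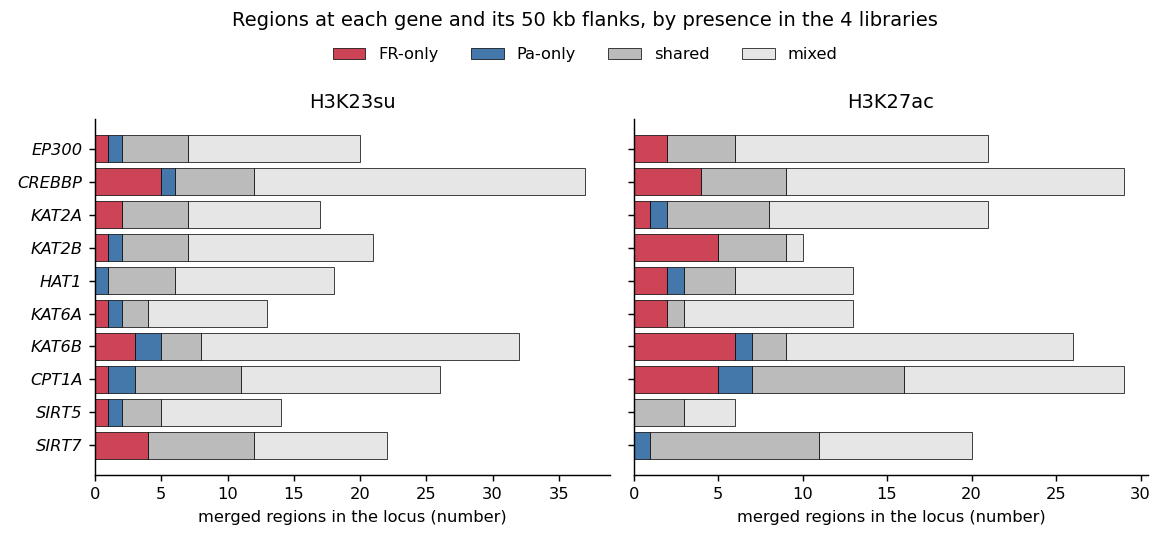
Number of merged H3K23su (left) and H3K27ac (right) regions in each locus, split into FR-only, Pa-only, shared and mixed. KAT2B has 10 H3K27ac regions, 5 of them FR-only and 1 mixed, while KAT6B, with 26, has 6 FR-only and 17 mixed.

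EP300 (ENSG00000100393, chr22:41488596-41576081, plus strand) and CREBBP (ENSG00000005339, chr16:3775055-3930714, minus strand) were the paralogous pair that writes H3K27ac. The EP300 promoter carried one of the strong H3K27ac peaks of each list, with scores (the peak caller's −log10 value) of 15.6 and 15.5 in HCT15-Pa and 18.7 and 17.6 in HCT15-FR, at or above the 97.4th percentile of its own library in each case. Its H3K23su promoter peak scored 6.19, 5.32, 7.22 and 6.42 in the same order. H3K27ac covered 1804 and 1819 bp of the promoter in HCT15-Pa and 1846 and 2032 bp in HCT15-FR, a small step up with no overlap between lines. Over the locus, H3K27ac covered 4665 and 4213 bp in HCT15-Pa and 6780 and 6018 bp in HCT15-FR, a difference of 1960 bp and a ratio of 1.44. The number of H3K27ac peaks there was 7 and 6 in HCT15-Pa and 12 in each HCT15-FR library. H3K23su over the same locus covered 5573, 5896, 5936 and 6768 bp, which barely separated the lines, with a ratio of 1.11 below the library-wide one. Counted with flanks of 10 kb, both HCT15-FR libraries were lower, with a difference of −336.5 bp. Leaving out 1 HCT15-FR library moved the 50 kb difference from 617.5 bp to 1033.5 bp (without replicate 1) or 201.5 bp (without replicate 2). With lists of equal length, and with a common minimum score, it was 484 bp and the lines overlapped.

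A single place in EP300 was FR-only in both marks. It lay in intron 27, 79.3 kb into the gene, with H3K23su over chr22:41567491-41568322 and H3K27ac over chr22:41567701-41568521. The HCT15-FR scores there were 3.61 and 4.70 for H3K23su and 5.37 and 4.55 for H3K27ac, between the 15.1st and 59.5th percentiles of their lists. The printed window of this place, 31.0% GC, was the poorest in GC of the 4. The one Pa-only H3K23su region of the locus touched exon 19 (chr22:41554242-41554626), and an H3K27ac FR-only region lay in the flank at −42.9 kb from the TSS.

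Over the loci with 50 kb flanks, both marks separated the lines at EP300, and H3K23su alone did at CREBBP. H3K23su covered 6999 and 5945 bp of its locus in HCT15-Pa and 10192 and 8691 bp in HCT15-FR, a difference of 2969.5 bp and a ratio of 1.46. With the 50% highest-scoring peaks of each library the difference was 474 bp and the lines overlapped. H3K27ac covered 7605 and 7207 bp in HCT15-Pa and 7729 and 7394 bp in HCT15-FR, so that the lines overlapped and the ratio was 1.02. This depended on the window and the scale. With flanks of 10 kb the H3K27ac difference was 857.5 bp, with both HCT15-FR libraries higher. Per megabase covered by the library it was −26.3 bp, with both HCT15-FR libraries lower. Whether the paralogs differed was not tested. Inside the gene lay 5 H3K23su FR-only regions, in introns 30, 21, 8, 2 and 1, and no Pa-only region. The strongest was in intron 1, chr16:3920914-3921493, with scores of 6.10 and 8.37, in the 78.6th and 93.1st percentiles of the HCT15-FR lists. The 4 H3K27ac FR-only regions in the gene lay in introns 30, 8 and 2 and over exon 30. Both marks met in intron 30 (H3K23su chr16:3780001-3780238, H3K27ac chr16:3780043-3780256) and in intron 8 (chr16:3830443-3830749 and chr16:3830477-3830794), all 4 regions between 214 and 318 bp wide. The promoter itself did not separate the lines in either mark, with 1208 to 1451 bp under H3K23su peaks and 1335 to 1844 bp under H3K27ac peaks. Per megabase covered by the library, both HCT15-FR libraries were lower in both marks, with differences of −9.53 bp for H3K23su and −11.3 bp for H3K27ac. With the promoters of all CREBBP transcripts, H3K23su covered 1378 bp more in HCT15-FR, without overlap.

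KAT2A (ENSG00000108773, chr17:40265129-40273385, minus strand), described as a histone succinyltransferase, showed no separation of the lines in H3K23su. Its promoter had 689 and 1304 bp under H3K23su peaks in HCT15-Pa and 1671 and 508 bp in HCT15-FR, so that the HCT15-FR libraries held both the highest and the lowest value. Its locus had 5183 and 6351 bp in HCT15-Pa and 7403 and 5986 bp in HCT15-FR, again overlapping. H3K27ac covered 6143 and 5704 bp of the locus in HCT15-Pa and 6516 and 6947 bp in HCT15-FR, without overlap, at a ratio of 1.14 below the library-wide one. The gene is short, 8257 bp, and its FR-only regions all lay in the flank beyond its end. One, 53.5 kb from the TSS, was FR-only in both marks (H3K23su chr17:40219376-40220333, scores 6.16 and 5.04, and H3K27ac chr17:40219422-40220282, scores 5.54 and 5.92), outside the gene and with no assignment to it. The only line-specific region within KAT2A was an H3K27ac Pa-only one in intron 6 (chr17:40270304-40270735) with scores of 3.38 and 3.18, near the bottom of both HCT15-Pa lists.

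KAT2B (ENSG00000114166, chr3:20081938-20195896, plus strand) was one of the 3 genes higher in HCT15-FR in both marks on both scales. It is 114 kb long, far longer than its paralog KAT2A, and whether the paralogs differed was not tested. H3K27ac covered 2754 and 2556 bp of the KAT2B locus in HCT15-Pa and 5111 and 6531 bp in HCT15-FR, a difference of 3166 bp and a ratio of 2.19. No other locus of the 10 had a higher ratio in either mark. The number of H3K27ac peaks was 4 and 5 in HCT15-Pa and 9 in each HCT15-FR library. H3K23su covered 3230 and 4228 bp in HCT15-Pa and 6262 and 5898 bp in HCT15-FR, a ratio of 1.63, although the number of H3K23su peaks (8, 12, 11 and 12) overlapped between lines. At the promoter H3K23su covered 611 and 568 bp in HCT15-Pa and 1366 and 1255 bp in HCT15-FR, a ratio of 2.22. H3K27ac covered 683 and 321 bp of the promoter in HCT15-Pa and 639 and 1171 bp in HCT15-FR, so that the lines overlapped.

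Most H3K27ac FR-only regions of KAT2B, 4 of 5, lay within 10 kb of the TSS. A peak just before the TSS was shared in both marks, with H3K27ac over chr3:20081287-20081969 at scores of 5.06, 6.33, 7.08 and 6.20. The 250 bases before the TSS, printed here because they lie within that merged H3K27ac region, of which single libraries covered 321 to 683 bp, and outside the H3K23su one (chr3:20081339-20081672), were 80.8% GC with 3 GC boxes in capitals, 2 of them side by side, and no AP-1 letters.

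KAT2B promoter, plus strand, chr3:20081688-20081937: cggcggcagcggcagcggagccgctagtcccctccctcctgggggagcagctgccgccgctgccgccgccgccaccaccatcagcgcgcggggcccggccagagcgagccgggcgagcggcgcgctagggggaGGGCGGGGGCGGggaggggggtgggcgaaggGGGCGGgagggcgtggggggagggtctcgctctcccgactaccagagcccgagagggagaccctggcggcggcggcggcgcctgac

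GC boxes occurred in 8 of the 10 promoters of the set and in 58.6% of 20140 promoters of this length, and AP-1 letters in none of the 10 and in 3.06% of all. Just inside KAT2B, 0.743 kb past the TSS, H3K27ac had an FR-only region (chr3:20082226-20083137) over a place where H3K23su was shared. It was weak, with scores of 3.52 and 4.08, in the 16.3rd and 35.1st percentiles of the HCT15-FR lists. Another 3 H3K27ac FR-only regions followed in intron 1, at 3.10, 7.30 and 9.10 kb. Those at 3.10 kb (scores 3.88 and 3.84, 28.9th and 27.9th percentiles) and 7.30 kb (3.11 and 3.90, 1.91st and 29.9th percentiles) were also weak. The region at 9.10 kb was the strongest, with scores of 5.79 and 5.33 over chr3:20090483-20091595, in the 64.5th and 59.3rd percentiles. It overlapped an H3K23su region shared by all 4 libraries, with scores of 4.88, 4.99, 4.46 and 5.03, and also a narrow H3K23su Pa-only region (chr3:20090294-20090605). In this stretch HCT15-Pa thus had H3K23su peaks and no H3K27ac peak, while HCT15-FR had both, with peaks of the 2 marks not called alike. The fifth H3K27ac FR-only region lay in intron 5, 68.6 kb past the TSS (chr3:20150132-20151026). It scored 3.83 and 3.43, in the 27.5th and 13.2nd percentiles of the HCT15-FR lists. It lay over the single H3K23su FR-only region of the locus (chr3:20150126-20150885, scores 6.18 and 4.08). Its central window, printed above, held the AP-1 letters. Beyond the gene, a region 146 kb past the TSS was shared in both marks and was the strongest of the locus in H3K27ac, with scores of 12.0 and 12.0 in HCT15-Pa and of 14.6 and 14.4 in HCT15-FR.

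**Figure D4:**
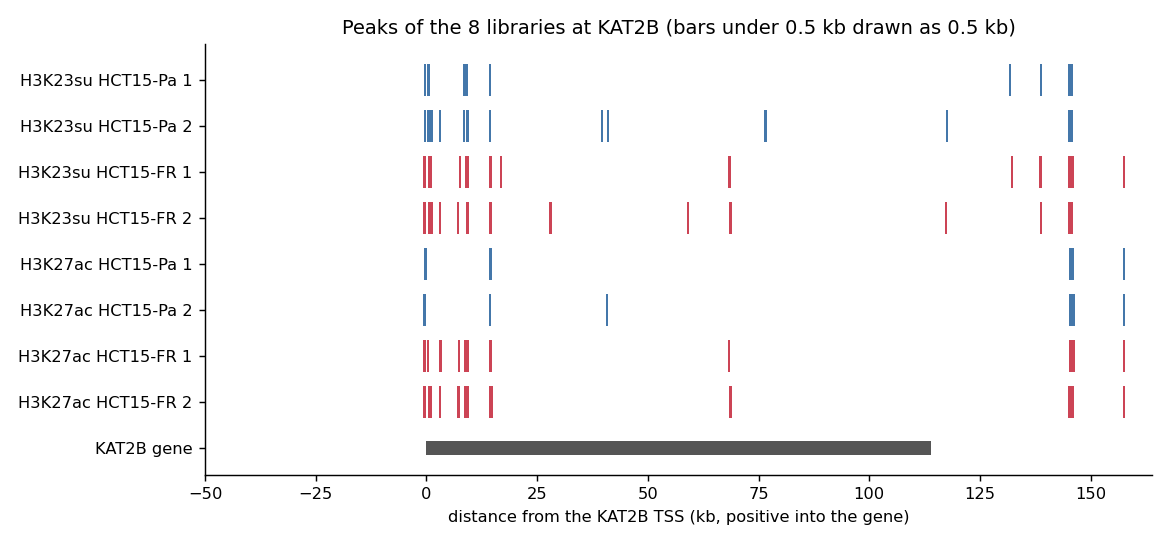
Positions of every peak of the 8 libraries from 50 kb before to 50 kb after KAT2B, as distance from the TSS in kb, with the gene as the lowest bar. Peaks narrower than 0.5 kb are drawn 0.5 kb wide so that they can be seen. Between the TSS and 10 kb, H3K27ac peaks are more numerous in the HCT15-FR rows, H3K23su peaks appear in both lines, and both marks have a peak near 68.6 kb in HCT15-FR alone.

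HAT1 (ENSG00000128708, chr2:172778958-172848600, plus strand) was among the genes with the smallest differences. H3K23su covered 5184 and 3609 bp of its locus in HCT15-Pa and 5000 and 4293 bp in HCT15-FR, overlapping at a ratio of 1.06. H3K27ac covered 3730 and 3341 bp in HCT15-Pa and 4053 and 3973 bp in HCT15-FR, a ratio of 1.14 and a difference of 477.5 bp, or 283 bp without HCT15-Pa replicate 2. Its promoter was well marked in every library, with H3K27ac scores of 11.7 to 12.3. Intron 4 held 2 H3K27ac FR-only regions (chr2:172811071-172811901 and chr2:172813589-172813767), each over a mixed H3K23su region. The locus had no H3K23su FR-only region, the only one of the 10 without, and 1 H3K23su Pa-only region in intron 2 (chr2:172794408-172794809).

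Of the MYST pair, which acetylates H3K23, KAT6B (ENSG00000156650, chr10:76584685-76792382, plus strand) differed between the lines in both marks. H3K23su covered 6307 and 4218 bp of its locus in HCT15-Pa and 9586 and 10026 bp in HCT15-FR, a difference of 4544 bp and a ratio of 1.86, the highest H3K23su ratio of the set. H3K27ac covered 4607 and 5751 bp in HCT15-Pa and 7910 and 10703 bp in HCT15-FR, a difference of 4128 bp and a ratio of 1.80. Without HCT15-FR replicate 2 this difference was 2731 bp, and without HCT15-FR replicate 1 it was 5524 bp. The gene is the longest of the 10 at 208 kb. Its promoter was also the only one higher in HCT15-FR in both marks, with 1393 and 1509 bp against 1719 and 1775 bp under H3K23su peaks and 1418 and 1123 bp against 1597 and 1492 bp under H3K27ac peaks. Per megabase covered by the library, both promoter differences were under 1 bp (0.378 and 0.834 bp) and the lines overlapped. The promoter peak was among the strongest in H3K27ac, scoring 16.0 to 20.2, and near the middle of the list in H3K23su, scoring 4.04 to 5.05, between the 37.3rd and 70.2nd percentiles.

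Intron 3 of KAT6B held all 6 FR-only regions found in the body of that gene, 3 of each mark. Both marks met 49.2 kb past the TSS (H3K23su chr10:76635125-76636042, H3K27ac chr10:76635025-76635982), where the HCT15-FR scores were 3.22 to 4.39. The strongest was an H3K27ac region at chr10:76657880-76658654, with scores of 6.01 and 9.17. Another 3 H3K27ac FR-only regions and 1 Pa-only region lay in the flanks. The gene body also held 2 H3K23su Pa-only regions, in introns 2 and 13, neither of which met an H3K27ac peak.

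KAT6A (ENSG00000083168, chr8:41786997-41909512, minus strand) differed mainly in H3K27ac, which covered 1724 and 2576 bp of its locus in HCT15-Pa and 3541 and 3476 bp in HCT15-FR, a ratio of 1.63. H3K23su covered 3575 and 3545 bp in HCT15-Pa and 4621 and 3847 bp in HCT15-FR, a ratio of 1.19, the same to 2 decimals as the library-wide one. The H3K23su difference of 674 bp was 287 bp without HCT15-FR replicate 1 and 1061 bp without replicate 2. Its H3K23su promoter peak was the highest of the 10 promoters in HCT15-FR replicate 1, scoring 6.94 and 10.1 in HCT15-Pa and 12.1 and 10.3 in HCT15-FR. No KAT6A region was FR-only in both marks. The gene held 2 H3K27ac FR-only regions, over a shared and a mixed H3K23su region. It also held 1 H3K23su FR-only region, 46.2 kb past the TSS, with scores of 4.01 and 4.58, over a mixed H3K27ac region. An H3K23su Pa-only region 30.2 kb past the TSS, with scores of 6.09 and 5.48, met no H3K27ac peak.

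CPT1A (ENSG00000110090, chr11:68522088-68611878, minus strand) had the largest difference of the set in H3K27ac covered length. H3K27ac covered 8113 and 8676 bp of the locus in HCT15-Pa and 13118 and 13261 bp in HCT15-FR, a difference of 4795 bp with an SD of at most 398 bp in either line, and a ratio of 1.57. H3K23su covered 7810 and 7517 bp in HCT15-Pa and 9911 and 10203 bp in HCT15-FR, a ratio of 1.31. Its promoter, by contrast, overlapped between lines in both marks. H3K27ac covered 722 and 540 bp there in HCT15-Pa and 754 and 507 bp in HCT15-FR, and H3K23su 520 and 863 bp against 721 and 696 bp. This TSS lay 2494 bp inside the 5′ end of the gene record. When the promoters of all annotated CPT1A transcripts were joined, H3K27ac covered 2285 bp more in HCT15-FR, without overlap.

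All but 1 of the line-specific regions of CPT1A lay in its introns, the other being an H3K27ac FR-only region in the flank (chr11:68502408-68502974). The 4 H3K27ac FR-only regions in the gene body lay in introns 1, 9 (2 regions) and 12. One in intron 9, 49.1 kb past the TSS (chr11:68559991-68560553, scores 4.36 and 4.88) met an H3K23su FR-only region (chr11:68559908-68560624, scores 5.27 and 5.08). Intron 1 also held Pa-only regions. H3K27ac had Pa-only regions 8.93 and 13.8 kb past the TSS, the first with scores of 6.80 and 4.84, and H3K23su had one 13.0 kb past it and another in intron 4. The Pa-only regions of the 2 marks near 13 kb lay side by side without overlap, at chr11:68595274-68595885 for H3K27ac and chr11:68596061-68596690 for H3K23su.

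Of the desuccinylases, SIRT5 (ENSG00000124523, chr6:13574459-13615390, plus strand) had a small H3K27ac difference, 151 bp, which was 64.5 to 237.5 bp when 1 library was left out. H3K27ac covered 3517 and 3420 bp of its locus in HCT15-Pa and 3533 and 3706 bp in HCT15-FR, a ratio of 1.04, with no FR-only and no Pa-only region among its 6. H3K23su covered 3415 and 4010 bp in HCT15-Pa and 4780 and 4774 bp in HCT15-FR, a ratio of 1.29. This difference of 1064.5 bp was 767 to 1362 bp when 1 library was left out. It was 157.5 bp with flanks of 10 kb and 224 bp over gene body and promoter alone, with overlapping lines in both. The lines also overlapped with the 50% highest-scoring peaks (214.5 bp) and per megabase covered by the library (8.65 bp). At the promoter H3K23su covered 1041 and 1061 bp in HCT15-Pa and 1146 and 1117 bp in HCT15-FR, without overlap between lines. The SIRT5 promoter peak was strong in H3K27ac, with scores of 13.6 to 17.4.

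SIRT7 (ENSG00000187531, chr17:79869815-79879199, minus strand) was the gene whose promoter was least evenly marked. H3K23su covered none of it in HCT15-Pa replicate 1, 1453 bp in HCT15-Pa replicate 2, and 392 and 773 bp in HCT15-FR, so the HCT15-Pa libraries held both extremes. H3K27ac covered 1347 and 1515 bp in HCT15-Pa and 1079 and 649 bp in HCT15-FR, a ratio of 0.604 and the only promoter of the set that was lower in both HCT15-FR libraries. The H3K27ac promoter scores were 4.84, 5.42, 5.28 and 4.02, the weakest of the 10 promoters in every library. Over the locus H3K23su covered 4327 and 6946 bp in HCT15-Pa and 10479 and 8683 bp in HCT15-FR, a ratio of 1.70. That difference lay outside the gene. All 4 of its H3K23su FR-only regions were in the flank, 19.2 to 47.7 kb past the TSS, and 3 of them lay within 2 kb of the start of a neighbouring gene, ARHGDIA. Counted over the gene and promoter alone, the H3K23su difference was −21.5 bp, with overlapping lines. H3K27ac over the locus overlapped between lines at a ratio of 1.05, and with flanks of 10 kb both HCT15-FR libraries were lower, with a difference of −349.5 bp.

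**Figure D5:**
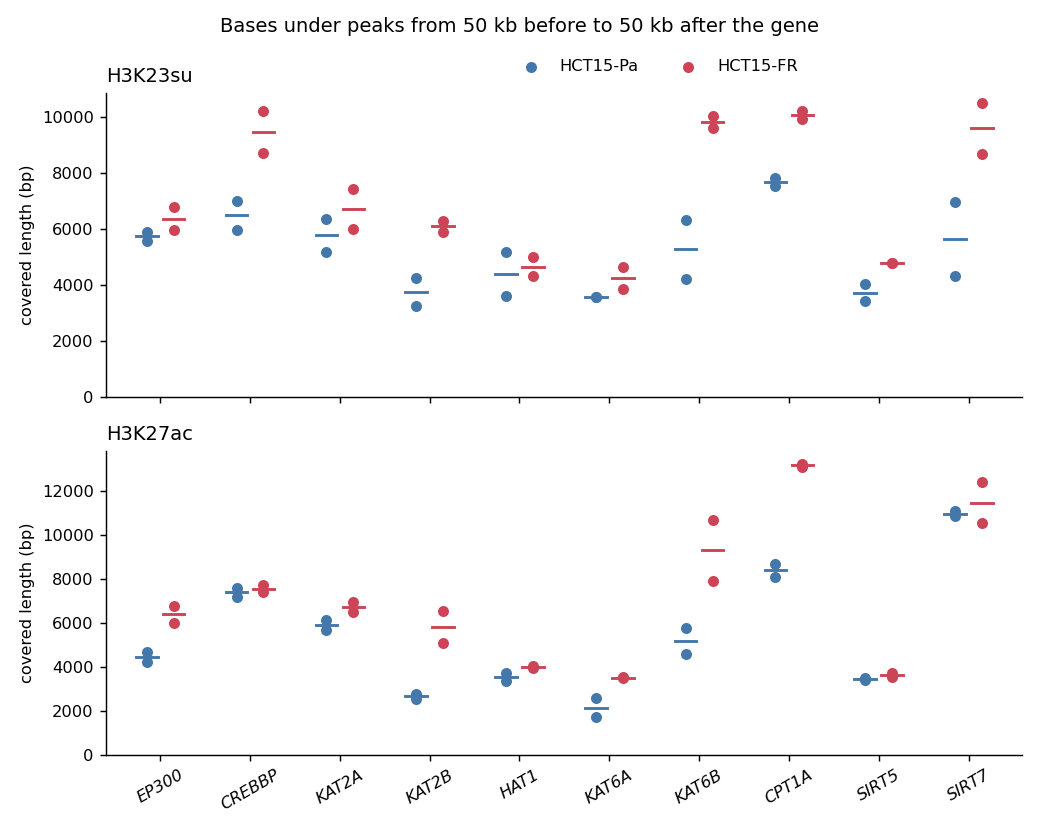
Bases under H3K23su (top) and H3K27ac (bottom) peaks from 50 kb before to 50 kb after each gene. Points are libraries, 2 per line, and horizontal bars are means. The HCT15-FR points lie above both HCT15-Pa points at 8 of 10 genes in each mark, with the widest gap at CPT1A in H3K27ac, and overlap the HCT15-Pa points at KAT2A and HAT1 in H3K23su and at CREBBP and SIRT7 in H3K27ac.

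The other genes of the pathway were taken from 4 lists: 6 further acetyltransferases, 8 deacylases, 11 partners in the acetyltransferase complexes and 6 readers of acylated lysine. All 31 had promoter peaks in all 4 libraries of both marks, against 54.7% of all genes for H3K23su and 59% for H3K27ac. Over the locus H3K23su covered more in both HCT15-FR libraries at 20 of the 31 and less at 3, against 48.1% and 12.2% of all genes, and H3K27ac more at 21 and less at 2, against 48.2% and 13.1%. At the promoter the counts were 14 and 1 for H3K23su, against 28.7% and 5.57%, and 10 and 1 for H3K27ac, against 23.1% and 9.42%. These promoter shares count all genes, of which 33.4% had no H3K23su and 26.5% no H3K27ac promoter peak in any library. At such genes the lines could not separate, so the shares are lower than they would be among genes with promoter peaks. The 3 loci with less H3K23su were those of the acetyltransferase NCOA1, the KAT6 complex subunit BRPF3 and the mitochondrial deacetylase SIRT3, which are named here after their values were seen. SIRT3 had 4574 and 4551 bp in HCT15-Pa and 3064 and 3558 bp in HCT15-FR. The 2 loci with less H3K27ac were those of the deacylases HDAC2 and SIRT2. The only promoters of the 31 with an FR-only region were those of the co-activator NCOA3, in H3K23su, and TAF6L, a subunit of the KAT2A and KAT2B complexes, in H3K27ac, and none had a Pa-only one. A cell population with fewer cells carrying a mark and one with less of the mark in each cell give the same peak list, so these values cannot tell them apart.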

How the data were processed

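The authors aligned CUT&Tag reads to hg19 with Bowtie2, removed unmapped, secondary and duplicate reads with SAMtools, kept properly paired and uniquely mapped reads, and called peaks with MACS2 in each library, with the broad option for H3K27ac. The submitters' processing notes also name HOMER 4.10 and deepTools. The deposited lists give a −log10 score per peak, taken here as that of the p-value after its name in the study's peak annotation, and scores were compared as percentiles within a list. Genes were those of GENCODE 44 on hg19. Peaks were assigned to promoters, gene bodies and 50 kb flanks, merged by mark with at least 1 bp of overlap, and covered lengths were compared by two-sided exact permutation tests of 2 libraries against 2. Calls rest on groups that do not overlap. Analyses ran in Python 3.11.15 with pysam 0.24.0 and were tested on simulated data. All 10 genes are described, and the sequences of some regions are not reported here. The genes and lists were chosen with earlier results of these data known. The alternatives were scaling by covered bases, other windows, thresholds and merging distances, leaving out each library, and a replicate block.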

Additional observations from a re-analysis of the deposited data

How the results depend on the processing

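With 2 libraries a line, no covered length could reach p below 0.333, and peak lists without read depth do not show how far a missing peak lay below the threshold. The replicate numbers were not used as pairs in the main comparisons. Deviations of same-numbered libraries correlated at 0.0180 for H3K23su and −0.0118 for H3K27ac over 20163 genes, which does not show whether they were prepared together. A fit with the replicate number as a block left each difference as it was (2351 bp for H3K23su and 3166 bp for H3K27ac at KAT2B). That outcome was fixed in advance, because each line had a library of each number, so it is no check on the differences. The smallest possible p of that fit was 0.5. The cause of the changes that follow was not tested, beyond what each alternative's own construction shows. The counts of line-specific regions depended on the threshold and on single libraries. With only the 50% highest-scoring peaks of a library kept, the H3K23su counts fell from 19 to 10 FR-only and from 10 to 2 Pa-only, and the H3K27ac counts from 27 to 8 and from 6 to 2. With 10 kb flanks, 12 H3K23su FR-only and 3 H3K27ac Pa-only regions were counted. Leaving out 1 library gave 22 to 57 H3K23su FR-only, 10 to 31 H3K23su Pa-only, 30 to 49 H3K27ac FR-only and 9 to 28 H3K27ac Pa-only regions, since a class then needs fewer peaks. Leaving out an HCT15-FR library gave 48 and 57 H3K23su FR-only and 48 and 49 H3K27ac FR-only regions, leaving out HCT15-Pa replicate 1 gave 30 H3K23su FR-only regions, and leaving out an HCT15-Pa library gave 31 H3K23su and 27 and 28 H3K27ac Pa-only regions. Without HCT15-FR replicate 2 there were 12 H3K27ac Pa-only regions.

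Differences in covered length (HCT15-FR minus HCT15-Pa) changed sign as follows. Per megabase covered by the library, H3K23su locus differences became −5.02 bp at KAT2A, −15.0 bp at HAT1, −12.3 bp at EP300 and −0.446 bp at KAT6A, and H3K27ac ones −6.36 bp at KAT2A, −3.87 bp at HAT1, −26.3 bp at CREBBP, −10.7 bp at SIRT5 and −33.2 bp at SIRT7. On that scale the promoter differences became −2.71 bp at KAT2A, −1.87 bp at HAT1, −2.98 bp at CPT1A and −3.10 bp at SIRT5 for H3K23su, and −4.25 bp at HAT1, −4.54 bp at EP300 and −4.01 bp at SIRT5 for H3K27ac. With 10 kb flanks, H3K23su turned at KAT2A (−445 bp), HAT1 (−92.5 bp) and EP300 (−336.5 bp), and H3K27ac at KAT2A (−623 bp), SIRT5 (−91 bp) and SIRT7 (−349.5 bp). Over gene body and promoter alone, H3K23su turned at KAT2A (−126.5 bp), HAT1 (−92.5 bp), EP300 (−263.5 bp) and SIRT7 (−21.5 bp), and H3K27ac at KAT2A (−477.5 bp), SIRT5 (−104 bp) and SIRT7 (−417.5 bp). In the stronger 50% of each list, H3K23su turned at KAT2A (−481.5 bp) and KAT6A (−243.5 bp), and H3K27ac at CREBBP (−339.5 bp) and SIRT5 (−35 bp). With the promoters of all annotated transcripts, H3K23su turned at KAT2A (−301.5 bp), CREBBP (1378 bp) and KAT6B (−178.5 bp), and H3K27ac at CREBBP (32.5 bp), CPT1A (2285 bp) and KAT6B (−58.5 bp). Without HCT15-Pa replicate 2, H3K23su at HAT1 was −537.5 bp and H3K27ac at CREBBP −43.5 bp, and without HCT15-FR replicate 1 these were −103.5 and −12 bp, with H3K27ac at SIRT7 at −426 bp. Over the libraries left out in turn, the ranges were −537.5 to 1037.5 bp at HAT1 in H3K23su, −43.5 to 354.5 bp at CREBBP and −426 to 1433 bp at SIRT7 in H3K27ac. Locus differences of KAT2B, CPT1A and KAT6B kept their sign in both marks under every alternative run, although the H3K27ac differences were 1244, 1983.5 and 2378.5 bp with the 50% highest-scoring peaks. The genes with a promoter peak in all 4 libraries numbered 9 for H3K23su and 10 for H3K27ac. With the 5′ end of the gene record as TSS these were 8 and 8, and with the 50% highest-scoring peaks 7 and 9. They were unchanged under the other alternatives tried.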
